A study of Glycine max with 26 samples.

Results

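The probe sets described here report seed maturation and late embryogenesis abundant (LEA) proteins of soybean. A probe set was a member when its single gene symbol in the platform annotation was PM, MP, MAT or SLE followed by a number, or started with LEA, a rule that used no measured value. This gave 30 probe sets of 26 genes, out of 16383 probe sets in the table, of which 5002 had a single gene symbol, for 4099 genes in all. All 26 genes were found under the same symbol in the RefSeq gene table of soybean. PM12, PM16, PM23 and PM30 each had 2 probe sets, of which probe set 1 is here the one with the higher mean signal. All 30 had a mean log2 signal above 4, the lower limit for testing, as did 11481 probe sets (70.1%) of the table.

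LEA proteins are small, very hydrophilic proteins that accumulate in the embryo late in seed development, when the seed loses water, and they are known for protecting membranes and enzymes during drying. Many are unfolded in solution and fold as water is lost. Their transcripts are known to be induced by abscisic acid, and the other seed maturation proteins named PM in soybean were catalogued from transcripts that become abundant in the same period of pod development.

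Seeds of Williams 82, with their seed coats, were taken from pods of flowers marked 5 weeks before. Plants had grown under 12 h light and 12 h dark at 25 °C, and the light of 350 µmol per m2 and s then stayed on. The series was made to find transcripts under clock control in such seeds. Seeds were collected at 13 times with 2 replicates each, every 4 h between 24 h and 72 h of constant light, and 24 h counts as subjective dawn. Each replicate pooled 8 seeds of 3 plants and was hybridised to its own single-colour array, and no group had another genotype or treatment. Subjective night here is 40 and 44 h in the first cycle and 64 and 68 h in the second, and subjective day is 28 and 32 h in the first cycle and 52 and 56 h in the second. Subjective dawn is 24, 48 and 72 h, and subjective dusk is 36 and 60 h. In such bulk samples, fewer cells of a type and less RNA per cell cannot be told apart.

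The values are log2 signals, so a difference of 1 is a doubling of signal, and array medians lay between 6.08 and 6.47. The number of arrays limits the precision. The lowest signal of an array, its floor, was between 2.40 and 3.02 on 13 arrays and between 1.54 and 2.04 on the other 13, with 1 array of each kind at every time. Low-floor minus high-floor arrays differed by a median of 0.07 over the members, with single members between -0.14 and 0.57, against a median of -0.05 for all tested. No member came near a floor, since the lowest member value was 4.61. Seed transcripts were present, with mean log2 signals of 16.24 for the brighter probe set of the glycinin GY1 and 15.47 for the trypsin inhibitor KTI3. Over 11 storage globulin probe sets the median SD over the 26 arrays was 0.14, and it was also 0.14 over 6 of protease inhibitors, with BG7S-2 at 0.82 and BBI-2 at 0.85.

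The members fell into probe sets that were steady over all arrays and probe sets whose lowest and highest arrays differed by more than 2-fold. MAT1, a dehydrin, varied most. Its log2 signal was 6.12 and 8.31 at 24 h, 10.15 and 8.87 at 28 h, 8.53 and 8.87 at 32 h, 8.62 and 7.69 at 36 h, and 4.61 and 5.34 at 40 h. It was 6.64 and 6.71 at 44 h, 7.82 and 5.76 at 48 h, 6.90 and 5.64 at 52 h, and 6.10 and 6.18 at 56 h. In the last hours it was 8.92 and 9.03 at 60 h, 8.01 and 7.16 at 64 h, 9.62 and 7.23 at 68 h, and 5.20 and 9.00 at 72 h (replicates 1 and 2 in this order). The signal was therefore high in both replicates at 28, 32 and 60 h, lowest in both at 40 h, and far apart between replicates at 24, 48, 68 and 72 h. Its lowest and highest array differed by 5.55 log2 units, a 46.8-fold range, and its SD over the arrays was 1.52 around a mean of 7.42.

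MP2, a LEA protein also known as PM2, followed the same course at a smaller scale. Its lowest signal was 6.28 in replicate 2 at 40 h, its median 7.63 and its highest 9.10 in replicate 1 at 68 h (SD 0.83). PM13, a calcium-binding protein of the caleosin type found on oil bodies, lay between 9.71 in replicate 2 at 40 h and 12.68 in replicate 1 at 28 h, with a median of 11.36 (SD 0.83). The spread of PM13 thus equalled that of MP2. PM3 lay between 10.56 and 12.83 with a median of 11.75 (SD 0.66). SLE2, a LEA protein of the Em type whose synonyms include Em and LEA1, lay between 11.38 and 13.69 with a median of 12.60 (SD 0.63). PM3 and SLE2 shared both extreme arrays with MAT1, with the lowest value in replicate 1 at 40 h and the highest in replicate 1 at 28 h.

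PM22 and PM24 came next in this order, with an SD over the arrays of 0.54 and 0.52. PM22 had its lowest log2 signal, 11.25, in replicate 2 at 52 h and its highest, 13.22, in replicate 1 at 28 h. PM24 had its lowest, 8.00, and its highest, 9.91, on the same arrays. PM35, PM39, PM41, PM25, PM32 and PM16 probe set 2 had SDs between 0.42 and 0.46. PM29, PM27, PM1, PM16 probe set 1, PM28 and PM9 had SDs between 0.27 and 0.38, and PM1 and PM9 encode LEA proteins of the same family. Replicate 2 at 52 h was the lowest array for PM25, PM32, PM35, PM41, PM29, PM27, PM1, PM28, PM9 and PM16 probe set 1 as well. Replicate 1 at 68 h was the highest array for PM25, PM32, PM41, PM29, PM27, PM1, PM28 and both PM16 probe sets.

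The steady members were PM34, PM37, PM40, PM31, LEA5 and both probe sets of PM12, PM23 and PM30. PM34, a protein of the short-chain dehydrogenase family, had 14.58 and 14.48 at 24 h, 14.53 and 14.62 at 28 h, 14.49 and 14.60 at 40 h, and 14.63 and 14.47 at 72 h. Its lowest and highest of the 26 arrays, 14.40 and 14.69, differed by 1.22-fold. PM37 lay between 12.80 and 13.24 and PM40 between 12.28 and 12.80. PM30 probe set 1, for a LEA protein, lay between 15.63 and 16.00, and probe set 2 of the same gene between 14.06 and 14.45. These 11 probe sets had SDs over the arrays between 0.08 and 0.16, and the widest of their ranges, that of PM23 probe set 2, was 0.70.

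**Figure D1:**
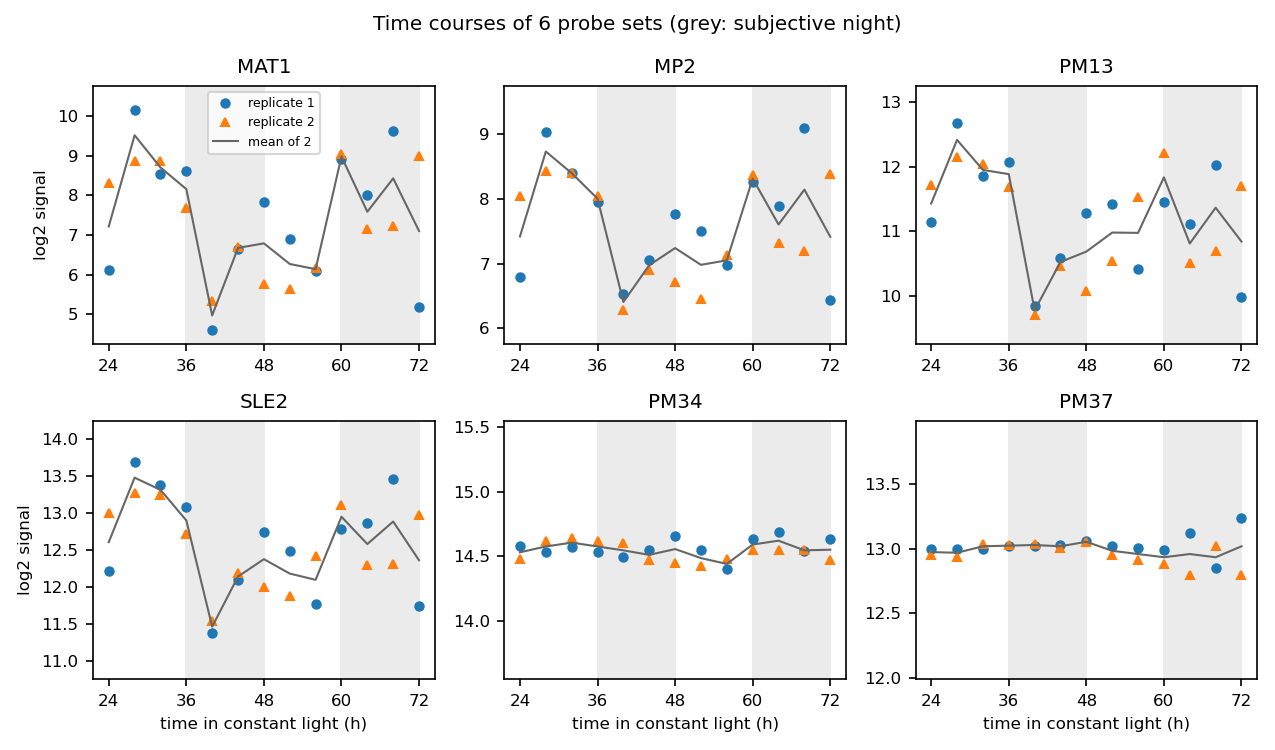
Time courses of MAT1, MP2, PM13, SLE2, PM34 and PM37: each panel plots log2 signal against hours in constant light, with points for the 2 replicates, a line for their mean and grey for subjective night. MAT1 had 4.61 and 5.34 at 40 h and its replicates were 5.20 and 9.00 at 72 h, while PM34 stayed between 14.40 and 14.69.

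The spread of the members depended on their level only in part. The 7 members with a mean log2 signal above 14 had SDs over the arrays of 0.08 to 0.16 with a median of 0.10, and the 136 probe sets of that level in the whole table also had a median of 0.10. Between means of 12 and 14, the 9 members had SDs of 0.09 to 0.63 with a median of 0.33, against a median of 0.13 for 448 probe sets. Between means of 10 and 12, the 6 members had a median of 0.44, against 0.16 for 1319 probe sets. Levels of different probe sets are not comparable with each other, since probes differ in their affinity. Over all members the median SD over the arrays was 0.35, against 0.21 for all probe sets tested. SDs of 14 of the 30 members were in the highest 10% of all.

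**Figure D2:**
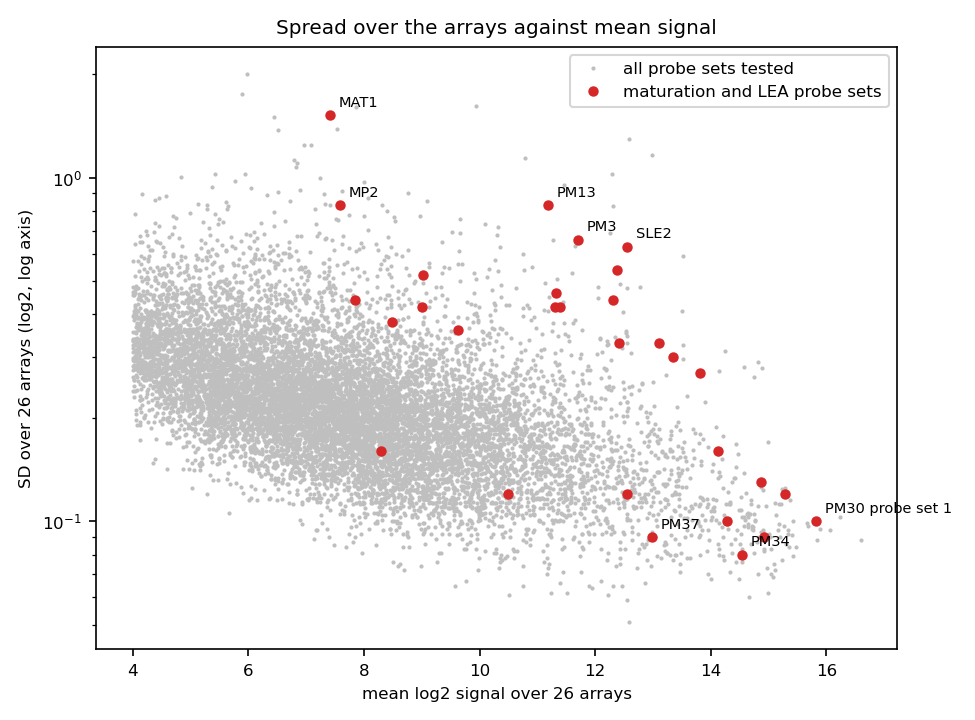
SD over the 26 arrays (log2, logarithmic axis) against mean log2 signal for the 11481 probe sets tested (grey) and the 30 members (red). MAT1 stood highest among the members with an SD of 1.52 at a mean of 7.42, and PM34 lowest with 0.08 at 14.55.

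Pooled over all times, the replicates of a time differed more for the median member than for the median probe set. The pooled SD between replicates had a median of 0.28 over the members and of 0.21 over all probe sets tested, and 8 of the 30 members were in the highest 10% for this measure. It was 1.16 for MAT1, 0.68 for MP2, 0.62 for PM13, 0.50 for PM3 and 0.47 for SLE2, and 0.08 for PM34, PM40 and both PM30 probe sets. The SD of the 13 time means had a median of 0.30, against 0.15 for all, and was above the SD between replicates in 19 of the 30 members, compared with 14.6% of all probe sets tested. Members therefore varied both between times and between the replicates of a time.

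The differences between replicates ran the same way in most members and changed sign between times. Replicate 1 was the higher of the pair in 28 of the 30 members at 52 h, by a median of 0.60, in 27 at 48 h, by 0.34, in 27 at 64 h, by 0.32, and in 26 at 68 h, by 0.71. Over all probe sets tested the median difference at these 4 times was between -0.21 and 0.07. At 24 h replicate 2 was the higher in 23 members, at 56 h in 26 and at 72 h in 22, where the median of replicate 1 minus replicate 2 was -0.34. MAT1 had the widest gaps, with replicate 1 minus replicate 2 of 2.40 at 68 h, -3.81 at 72 h, -2.19 at 24 h and 2.07 at 48 h. From 28 h to 44 h and at 60 h the replicates were closer, with median absolute differences between 0.07 and 0.17. At each of these times the members' value was below that of all probe sets tested, which lay between 0.13 and 0.26. At 48, 52, 68 and 72 h the low-floor array was the higher in most members. The high-floor array was the higher in most members at 24, 56 and 64 h. At 40 h the high-floor array was the higher in 21 members, and at 44 h the low-floor array in 21. Neither was the higher in more than 17 members at 28, 32, 36 and 60 h. What part the floor had in these gaps was not tested.

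**Figure D3:**
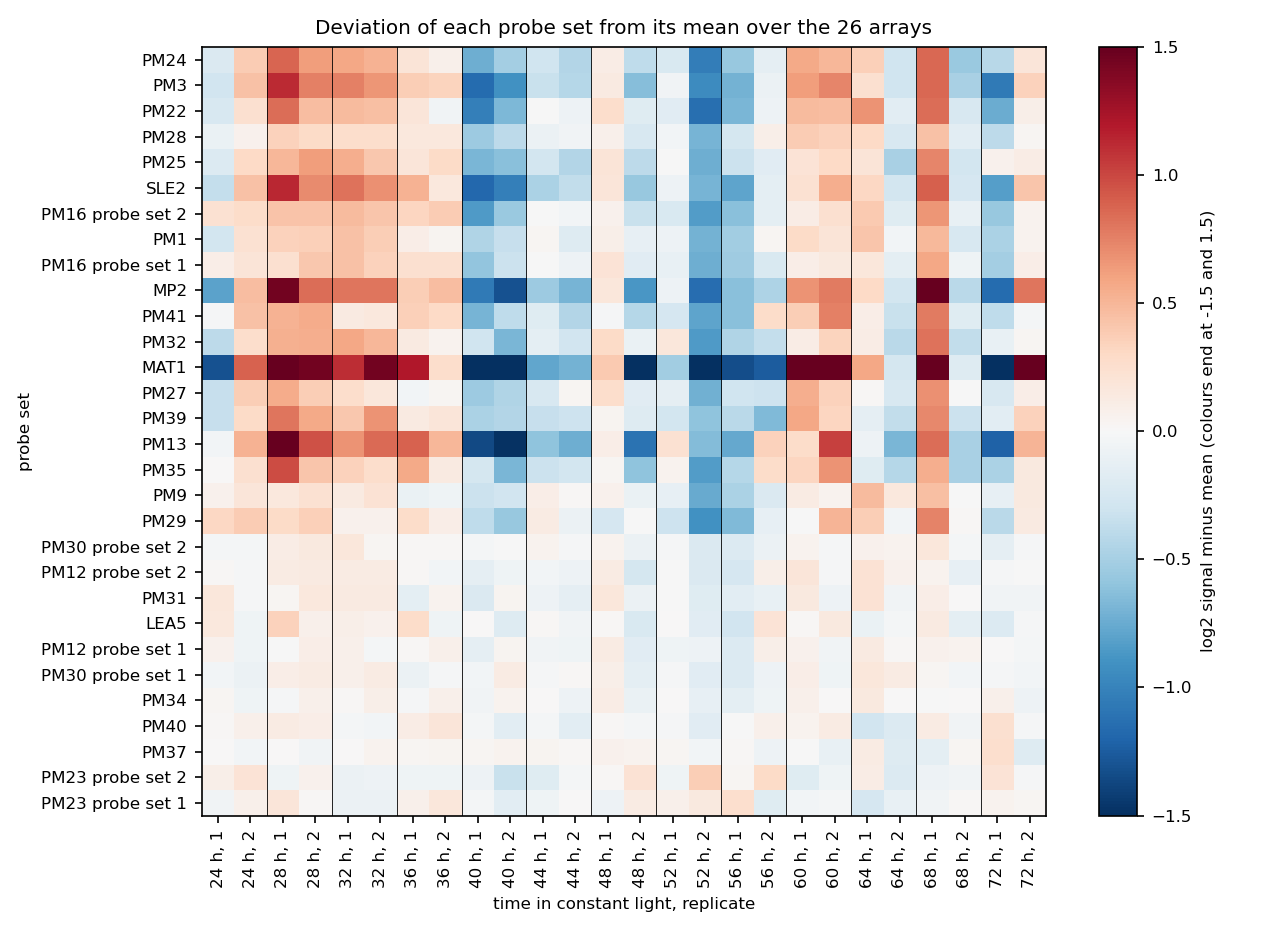
Log2 signal minus its mean over the 26 arrays, for each member (rows, ordered by their correlation with the mean of the others) on each array (columns, by time and replicate). Red is above and blue below the mean, and colours end at -1.5 and 1.5. Both arrays at 28, 32, 36 and 60 h are red for most members, both at 40 h are blue, and the replicates at 48, 64 and 68 h have opposite colours.

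Read array by array, most members were above or below their own mean together, and some arrays were mixed. On the 2 arrays at 28 h, 27 and 29 of the 30 members were above their own mean, at 32 h 27 and 26, and at 36 h 24 and 24. On the 2 arrays at 40 h this was so for only 2 and 6 members, and at 44 h for 7 and 5. At 60 h, 26 and 22 members were above their mean. The replicates disagreed at 48 h with 27 and 3 members, at 64 h with 24 and 6, and at 68 h with 26 and 6. In replicate 1 at 24 h the members were split, with 13 above their mean, as in replicate 2 at 56 h with 10 and at 72 h with 19. The median deviation of all probe sets tested stayed between -0.16 and 0.12 on the 26 arrays, while that of the members ran between -0.70 in replicate 2 at 52 h and 0.56 in replicate 1 at 68 h.

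The largest step between neighbouring times was that into the first subjective night, which is described here because it was seen in the values. At 40 h, 24 of the 30 members had both replicates below both replicates of 36 h, with a median difference of -0.60. Of all probe sets tested, 28.5% were lower in this way at 40 h, with a median difference of -0.08. At 44 h, 17 members were higher than at 40 h without overlap (17.1% of all), by a median of 0.27. Earlier, 21 members were higher at 28 h than at 24 h (11.2% of all), by a median of 0.25. Lower values had begun within the subjective day, since 14 members were lower at 32 h than at 28 h (25.9% of all), with a median difference of -0.12. At 36 h, 18 were lower than at 32 h (11.6% of all), with a median difference of -0.14, against 0.11 for all. In the second cycle the step with the most members was upward: at 60 h, 22 members were higher than at 56 h (4.35% of all), by a median of 0.50. At 64 h, 15 were lower than at 60 h (15.5% of all).

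The members were next compared in the tests that the design allows, with limma and Benjamini-Hochberg adjustment over all 11481 probe sets at 0.05. No member passed the test of a 24 h rhythm, against 1.2% of all probe sets tested. At an unadjusted p under 0.05 there was 1 member (10.3% of all), PM23 probe set 2, with an amplitude of 0.14 ± 0.04 (SE) and an adjusted p of 0.229. PM23 probe set 1 had 0.08 ± 0.04 with 0.673. PM13 had the largest fitted amplitude, 0.53 ± 0.21, with a fitted peak 7.14 h after subjective dawn and an adjusted p of 0.520. MAT1 had an amplitude of 0.48 ± 0.43 with an adjusted p of 0.877, and MP2 of 0.33 ± 0.23 with 0.823. The amplitudes of these 3 probe sets were smaller than their pooled SD between replicates.

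No member passed the limma test of any difference between the 13 times, where 0.0436% of all did. At an unadjusted p under 0.05 there were 15 members (7.49% of all). PM39 had the smallest adjusted p, 0.261, with an SD of its time means of 0.40, followed by PM16 probe set 2 with 0.304 and SLE2 with 0.359. The time means of MAT1, PM13 and MP2 had the largest SDs, 1.29, 0.71 and 0.68, with adjusted p of 0.407, 0.374 and 0.592 in limma. No member and no other probe set passed the test of a linear trend over the 48 h (0% of all), and none of the members reached an unadjusted p under 0.05, against 5.33% of all. The fitted trend was below 0 in 29 of the 30 members and in 51.7% of all. PM16 probe set 2 had the lowest, -0.37 ± 0.27 over the 48 h, followed by PM13 with -0.35 ± 0.47 and PM16 probe set 1 with -0.31 ± 0.21. LEA5 had the smallest adjusted p, 0.966 in limma, with -0.16 ± 0.10.

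Subjective dawn against subjective dusk gave no call among the members or all probe sets (0% of all), in limma with Benjamini-Hochberg adjustment. The difference was below 0 in 26 of the 30 members (44.4% of all), with a median of -0.21 against 0.02 for all. At an unadjusted p under 0.05 there were 6 members, all lower at dawn (1.72% of all). MAT1 averaged 7.04 ± 1.55 at dawn (SD, n = 6) and 8.57 ± 0.61 at dusk (SD, n = 4), a difference of -1.53 ± 0.66 (SE). PM13 averaged 10.99 ± 0.77 at dawn and 11.86 ± 0.35 at dusk, a difference of -0.88 ± 0.35. Dawn arrays of MAT1 lay between 5.20 and 9.00 and overlapped the dusk arrays, between 7.69 and 9.03. PM41 had the smallest adjusted p of the members in limma, 0.793, with a difference of -0.52 ± 0.20. PM3 differed by -0.69 ± 0.29 and MP2 by -0.80 ± 0.39. Leaving out replicate 1 at 72 h moved the difference of MAT1 to -0.90, and leaving out replicate 2 at 72 h moved it to -2.16.

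Subjective night against subjective day over both cycles gave no call among the members, against 3.68% of all probe sets tested. The median difference was -0.10 in the members and -0.05 in all. It was -0.05 without replicate 1 at 52 h, -0.06 without replicate 2 at 56 h, -0.17 without replicate 1 at 68 h and -0.04 without replicate 2 at 68 h, and 5 members were lower at night at an unadjusted p under 0.05 (11.5% of all). PM13 came closest to the threshold, with 10.62 ± 0.73 at night and 11.58 ± 0.78 in the day (SD, n = 8 each), a difference of -0.96 ± 0.27 and an adjusted p of 0.0619 in limma. It passed, with an adjusted p of 0.0458, where only probe sets with a mean above 6 were tested, and with 0.0489 where the array floor was a block. SLE2 had a difference of -0.50 ± 0.21 with an adjusted p of 0.210, and PM25 of -0.34 ± 0.15 with 0.233. MAT1 had -0.74 ± 0.51 with 0.477, which moved to -0.44 without replicate 2 at 68 h, and MP2 had -0.51 ± 0.30 with 0.402. The night and day arrays of all 5 overlapped.

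The 2 cycles differed in the direction of the night and day difference, and they were therefore compared separately, a choice made after these values were seen. In the second cycle no member passed limma's test (0% of all), 26 of the 30 had a higher mean at night than in the day (29.8% of all), and the median difference was 0.38, against -0.09 for all. This median was 0.16 without replicate 2 at 52 h, 0.24 without replicate 1 at 64 h, 0.17 without replicate 1 at 68 h and 0.63 without replicate 2 at 68 h. In the first cycle 14 members of 13 genes passed it, all lower at night, against 5.62% of all probe sets in either direction and 2.34% lower at night. There 29 of the 30 members were below 0 (47.7% of all), and the median difference was -0.61, against 0.01 for all. These calls rest on 4 night and 4 day arrays, and leaving out a single array of the 8 lowered the 14 calls to between 5 and 8, with 5 without replicate 1 at 28 h. The median difference of the members stayed between -0.66 and -0.56 over all 26 arrays left out in turn. On the low-floor arrays alone, with 2 night and 2 day arrays, no member passed and the median was -0.63. On the high-floor arrays alone none passed either, and the median was -0.56.

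MAT1 had the largest change in the first cycle. It had 4.61, 5.34, 6.64 and 6.71 at night, against 10.15, 8.87, 8.53 and 8.87 in the day, so that all night arrays lay below all day arrays. Its signal fell by 3.28 ± 0.72 on the log2 scale, 9.73-fold, with an adjusted p of 0.0121 in limma. This call ended without replicate 1 at 28 h or replicate 1 at 40 h. MP2 averaged 6.69 ± 0.35 at night and 8.57 ± 0.31 in the day (SD, n = 4 each) and changed by -1.88 ± 0.43, with an adjusted p of 0.0146 in limma. The difference of MP2 corresponds to 3.67-fold, and its call ended in 6 of the 26 fits that left out an array.

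SLE2 had 11.38, 11.54, 12.09 and 12.19 at night and 13.69, 13.27, 13.38 and 13.25 in the day. It fell by 1.60 ± 0.30, 3.03-fold, with the smallest adjusted p among the members, 0.00451 in limma. PM13 had 9.84, 9.71, 10.59 and 10.46 at night and 12.68, 12.15, 11.86 and 12.04 in the day. Its change of -2.03 ± 0.39, 4.08-fold, had an adjusted p of 0.00555 in limma. PM3 averaged 11.01 ± 0.39 at night and 12.53 ± 0.20 in the day (SD, n = 4 each) and fell by 1.52 ± 0.32, with an adjusted p of 0.00945 in limma. The groups did not overlap in any of these 3 genes. Their calls, and those of PM39 and PM25, held in each of the 26 fits that left out an array.

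PM39 fell by 1.01 ± 0.19 and PM25 by 1.02 ± 0.21 on the log2 scale, with adjusted p of 0.00565 and 0.00825 in limma. Both were among the less variable callers, with night arrays of PM39 between 7.37 and 7.53 and day arrays between 8.25 and 8.65. PM24 changed by -1.14 ± 0.26, and PM22 averaged 11.94 ± 0.49 at night and 12.94 ± 0.18 in the day (SD, n = 4 each), with an adjusted p of 0.0344 in limma. PM32 and PM35 both fell by 0.89 on the log2 scale, with SEs of 0.24 and 0.25. The probe sets of PM16, a LEA protein, agreed within their errors at -0.61 ± 0.17 and -0.80 ± 0.19. PM27 had the smallest change among the genes past the threshold besides PM16, -0.65 ± 0.18. PM35 had the largest adjusted p of the callers, 0.0483 in limma, and its call ended in 16 of the 26 fits that left out an array. The calls of PM16 probe set 1 ended in 14 and of PM27 in 10 of them. Those of PM22 and PM32 ended in 8 each, of PM16 probe set 2 in 7 and of PM24 in 6.

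Counted without a model, 20 of the 30 members had all 4 night arrays below all 4 day arrays in the first cycle (7.8% of all) and none had them above (9.83% of all). Besides the 14 that passed, these were LEA5, PM28, PM9, PM1, PM41 and PM12 probe set 2. PM1 averaged 12.17 ± 0.21 at night and 12.78 ± 0.04 in the day (SD, n = 4 each), with an adjusted p of 0.0661 in limma. PM28 averaged 13.07 ± 0.24 at night and 13.63 ± 0.04 in the day, and PM41 11.89 ± 0.21 at night and 12.65 ± 0.23 in the day, with adjusted p of 0.0562 and 0.0540. PM37 was the single member whose difference was above 0, at 0.03 ± 0.10.

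In the second cycle 12 members had an unadjusted p under 0.05, all higher at night (2.08% of all). PM9 had 14.29, 13.98, 14.27 and 13.81 at night, against 13.70, 13.06, 13.34 and 13.60 in the day, a difference of 0.66 ± 0.13 with an adjusted p of 0.130 in limma. No probe set in that comparison had a smaller adjusted p, but the adjustment gives several probe sets the same value, so PM9 need not rank first. PM29 averaged 8.75 ± 0.36 at night and 7.97 ± 0.35 in the day (SD, n = 4 each), a difference of 0.77 ± 0.19 with an adjusted p of 0.155. MAT1 had 8.01, 7.16, 9.62 and 7.23 at night and 6.90, 5.64, 6.10 and 6.18 in the day, a difference of 1.80 ± 0.72 with an adjusted p of 0.296. In these 3 members the night arrays lay above the day arrays without overlap (1.34% of all), and in none did they lie below (4.91% of all). MP2 differed by 0.86 ± 0.43 and moved to 0.38 without replicate 1 at 68 h. PM22 differed by 0.80 ± 0.27 with an adjusted p of 0.240 in limma, and PM16 probe set 2 by 0.65 ± 0.19 with 0.209. PM13 averaged 11.09 ± 0.67 at night and 10.98 ± 0.58 in the day of the second cycle, a difference of 0.11 ± 0.39 that was smaller than its error.

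The difference between the cycles was tested as a contrast of its own, second minus first. It was above 0 in 27 of the 30 members (31.9% of all) with a median of 1.11, against -0.12 for all, and 23 members had an unadjusted p under 0.05 (3.54% of all above 0). None passed after adjustment, and none of the other probe sets did (0% of all). PM16 probe set 2 with 1.45 ± 0.27, PM39 with 1.47 ± 0.27 and SLE2 with 2.20 ± 0.42 shared the smallest adjusted p, 0.0521 in limma. MAT1 had the largest value, 5.08 ± 1.02 with 0.0597, followed by MP2 with 2.73 ± 0.60 and 0.0630. This count moved with the processing, since 11 members passed with the array floor as a block, 11 after quantile normalization, 13 among probe sets with a mean above 6, 9 with trended and robust variances and 18 without replicate 2 at 68 h.

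**Figure D4:**
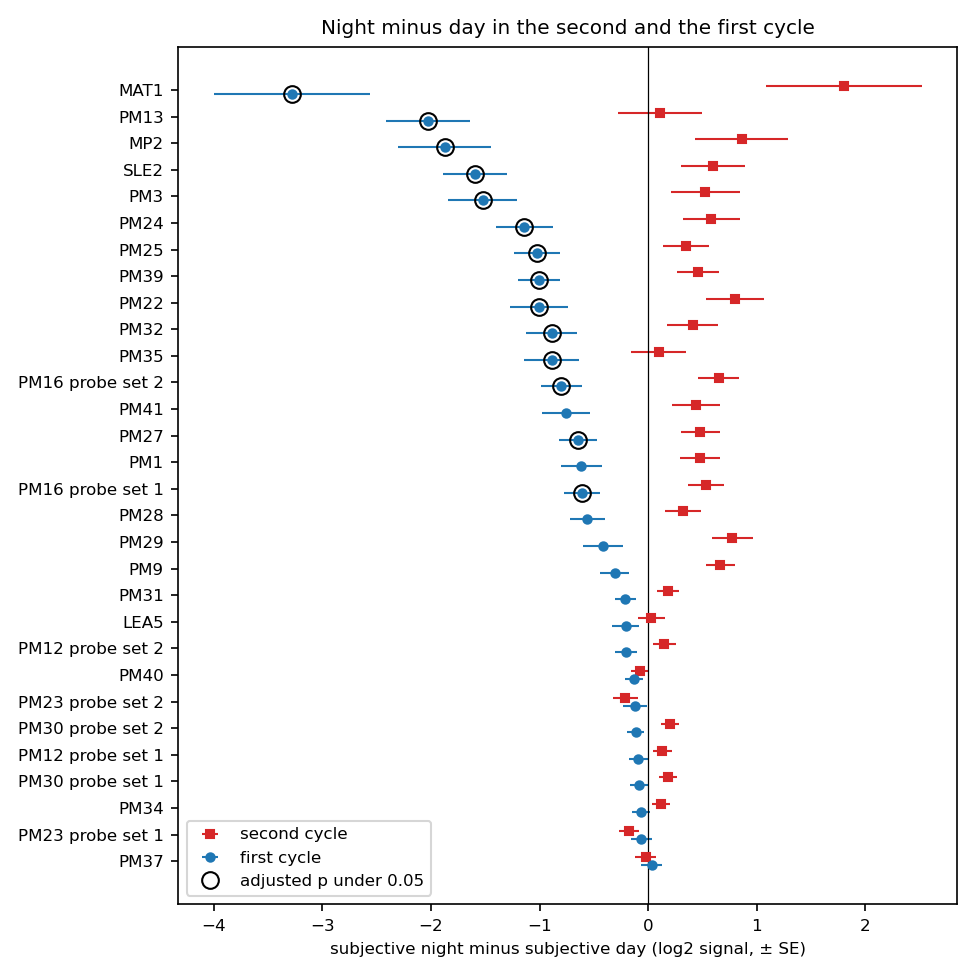
Subjective night minus subjective day (log2 signal, ± SE from limma) for each member in the second cycle (red squares) and in the first cycle (blue circles, ringed where the adjusted p was under 0.05). In the second cycle 26 of 30 members lie above 0 and none passed the test, and in the first cycle 29 lie below 0 and 14 passed it.

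Which members vary together was described by Pearson correlations over the 26 arrays, and arrays of a table share their normalization. Over the 435 pairs of members the median r was 0.64, against 0.11 for all pairs of probe sets tested, and 130 pairs (29.9%) had r above 0.8, against 0.289% of all pairs. The 4 genes with 2 probe sets add pairs of the same gene to this count. Over the means of the 13 times the median was 0.73 (0.10 for all pairs). Over the 13 differences between replicates it was 0.58 (0.14 for all pairs). Members thus went together in their differences between replicates as well as in their time means.

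With the mean of the other members, 17 probe sets had r above 0.8. PM24 came first with 0.97, followed by PM3 with 0.95 and PM22, PM28, PM25 and SLE2 with 0.94. This set also held both probe sets of PM16, PM1, MP2, PM41, PM32, MAT1, PM27, PM39, PM13 and PM35, and all 14 probe sets that passed in the first cycle were in it. The closest pairs of different genes were SLE2 with PM3 at 0.98, and MP2 with MAT1 and with PM3 at 0.97 each. Pairs at 0.96 were PM22 with PM1 and with PM28, PM3 with PM24 and with MAT1, and SLE2 with MP2 and with MAT1. PM9 and PM29 followed at 0.79, and the steady PM30 probe set 2 and PM12 probe set 2 at 0.78. The steady probe sets PM31, LEA5, PM12 probe set 1, PM30 probe set 1 and PM34 had r between 0.49 and 0.65, and were closer to one another in part, with 0.79 between PM34 and PM31.

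PM40, PM37 and both probe sets of PM23 stood outside this pattern. PM40 had r of 0.37 with the mean of the others, PM37 of -0.21 and each PM23 probe set of -0.23. The PM23 probe sets correlated with each other at only 0.24, while those of PM12, PM16 and PM30 did so at 0.78, 0.98 and 0.76. By its suffix, 1 probe set of each of these pairs may detect more than 1 transcript. PM23 probe set 2 lay between 7.96 and 8.66 and had its highest signal in replicate 2 at 52 h, the array on which most variable members were lowest. PM23 probe set 1 lay between 10.24 and 10.75. The SDs over the arrays of these 4 probe sets were between 0.09 and 0.16, so that their r rests on small differences.

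**Figure D5:**
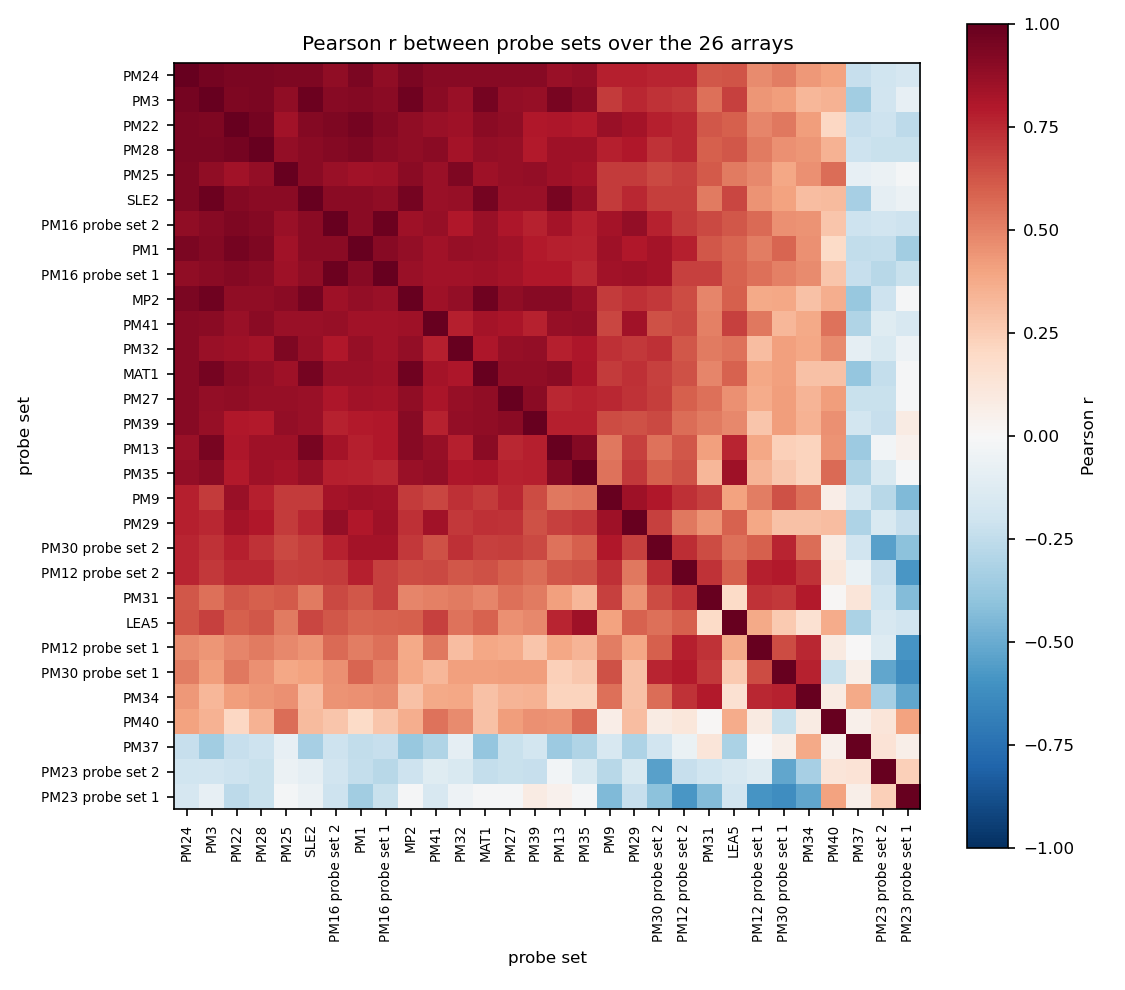
Pearson r between all pairs of the 30 members over the 26 arrays, with the members in the order of their correlation with the mean of the others. The upper left block of 17 probe sets is dark red, and PM37 and both PM23 probe sets at the lower right are pale to blue against it.

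Outside the members, 47 probe sets (0.41%) had r above 0.8 with the mean profile of the members and 27 (0.236%) had r below -0.8, with a median r of -0.17 over all. Among 3847 probe sets with a single symbol, the 10 most alike included TENA_E at 0.93, whose synonym is PM36, PGMPM18 at 0.92 and SBP65, a biotinylated LEA protein of seeds, at 0.91. The others in the 10 were known by locus numbers, with LOC547494 highest at 0.94, and one of them, at 0.89, had the synonym GSTU18. Genes named after their values were seen were PGMPM10 and MYB92 at 0.87, GST24 at 0.85 and the stress protein ERD15 at 0.79. GOLS, BG7S-2 and CHS8 were named in this way too. GOLS, for galactinol synthase, which starts the synthesis of raffinose-type sugars of drying seeds, had r of 0.82 and was lower in the first night by 1.12 ± 0.29 with an adjusted p of 0.0279 in limma.

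Other seed genes were set beside the members by lists of symbols. In the first night 2.34% of all probe sets tested were lower and 3.27% higher after adjustment. Of 11 storage globulin probe sets, 1 was lower in the first night (BG7S-2, a basic 7S globulin, -1.79 ± 0.34 with r of 0.83) and none was higher, and the median r of the list was 0.12. Of 6 probe sets of protease inhibitors, 1 was lower (BBI-2, -1.83 ± 0.42 with r of 0.58), with a median r of 0.27. None of the 12 heat shock probe sets passed in either direction, and of 4 probe sets of dehydrins and stress proteins 1 was lower (ERD15, -0.69 ± 0.16), while COR1 and COR2 had r between -0.22 and 0.13 and the median r was 0.04. Lists for oil body proteins and abscisic acid signalling matched no symbol. Of 9 photosynthesis probe sets, 5 were higher in the first night and none lower, with a median r of -0.49. Of 9 probe sets on a list of seed coat symbols 3 were lower, all of CHS8, a chalcone synthase, by between 1.72 and 2.04 on the log2 scale. CHS8 was on this list by its symbol alone, and its expression in the coat was not measured apart. No probe set of HPS, PRP2, PRP3 or Ep passed in either direction. The r of the seed coat list with the members had a median of 0.45 and lay between -0.41 for PRP3 and 0.78 for CHS8, with 0.45 and 0.50 for PRP2, -0.02 for HPS and -0.38 for Ep. The part of the seed coat in the members' changes was not tested.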

How the data were processed

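Single-colour arrays of 26 seed samples were analysed, 13 times with 2 replicates each. The log2 signals per probe set were deposited by the authors, who normalized them with GCRMA, per the submitters' processing notes. Its version is not given in the sources consulted, the values' range showed a log2 scale, and GCRMA can compress low signals. Soybean probe sets beyond this table may exist. Since no label says that replicates came from separate plants, a p-value covers the spread between the samples alone, and that may be technical. Between the replicates of a time r was 0.977 to 0.994, with 0 values identical.

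Members, gene lists and tests were chosen with earlier results of these data known. Symbols came from the platform annotation, which gave several for 217 and none for 11164 probe sets, and a probe set listed as MAT9 together with a dehydrin symbol was left out for that reason. By suffix, 4 member probe sets may detect more than 1 transcript. No coordinates or sequences are given. The planned description of protein and promoter sequences was not made, since no sequence table was used here.

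Probe sets whose mean log2 signal exceeded 4 were fitted with limma 3.58.1 in R 4.3.3 (lmFit, eBayes, Benjamini-Hochberg at 0.05): a cosine and sine of 24 h with linear time, whose time term gave the trend, and a fit of 13 times with contrasts. Contrasts of single cycles were added after the data were seen. The tests of the rhythm, any difference between times, the trend, the first cycle and the difference between cycles were tried on simulated data. Correlations and spreads were computed in Python 3.11.15 with numpy 2.4.6 and pandas 2.3.3, and figures drawn with matplotlib 3.10.9. For each test the text names the members past the threshold or, with none, those with the 3 smallest p and the 3 largest values, plus members of extreme level or spread and the 10 most similar other probe sets; further members illustrate groups. Replicate numbers did not pair samples: over 78 pairs of times, deviations of equal numbers correlated at -0.38 to 0.61, with 34 over 0.1. Alternatives covered the filter, normalization, variance moderation, replicate and floor blocks, floor groups alone, arrays left out, and the terms of the rhythm fit.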

Additional observations from a re-analysis of the deposited data

Results flagged for a closer look

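Of 64 groups of 4 to 8 arrays examined for the named members, 4 held an array far from the others, and chance alone gives about 1 in 20 such groups. PM41 had 13.06 in replicate 2 at 60 h among the 4 dusk arrays, while the others lay between 12.61 and 12.67. PM22 had 13.22 in replicate 1 at 28 h among the first day's arrays, while the others lay between 12.84 and 12.86. MP2 had 9.04 on the same array, and its other first day arrays lay between 8.40 and 8.43. PM35 had 10.63 in replicate 2 at 40 h among the first night's arrays, while the others lay between 11.00 and 11.06. Without replicate 1 at 28 h the first cycle differences were -0.91 for PM22 and -1.72 for MP2, and neither passed. The call of PM22 also ended without any other single array of the 8 in that contrast. That of MP2 also ended without either replicate at 32 h or at 44 h, or without replicate 2 at 40 h.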

How the results depend on the processing

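Under every alternative run, the members' medians in the dawn and dusk and in the night and day contrasts, of both cycles too, kept their sign, though an array left out moved the night and day median to between -0.17 and -0.04 and that of the second cycle to between 0.16 and 0.63. No value of the members named for each test reversed. Of their values under an alternative, 1354 kept their side of the threshold, 110 lost a call and 56 gained one. Counts moved more. For the rhythm, 138 probe sets became 76 with no filter, 232 after quantile normalization, 258 without the linear term, 64 at a 22 h period, 28 with a 12 h harmonic, 0 on low-floor and 42 on high-floor arrays, and 72 to 199 with an array left out, and no member passed in any of these. For any difference between times, 5 became 0 with no filter, 31 with means above 6, 79 after quantile normalization, 60 with trended and robust variances, 35 with the floor as a block and 0 to 59 with an array left out. The replicate block gave 12 there and 1 for the trend, where none passed before, and changed no other count by over 1.5 times. Linear time alone gave 3 for the trend, and leaving out an array 0 to 1. Dawn against dusk gave 2 on high-floor arrays and 0 to 1 with an array left out. For night against day, 422 became 213 with no filter, 8 and 12 on low-floor and high-floor arrays and 209 to 483 with an array left out. PM13 was the 1 member that then passed, with means above 6, with the floor as a block and in 4 of the 26 fits that left out an array (0 to 1 members). In the first cycle, 645 became 423 with no filter, 26 on low-floor and 0 on high-floor arrays and 270 to 727 with an array left out. Its 14 members became 9 with no filter, 0 on each floor group alone, which have fewer samples, and 5 to 17 with an array left out. In the second cycle, 38 probe sets passed after quantile normalization, 2 with trended and robust variances and 0 to 6 with an array left out, and 0 to 1 members. For the second minus the first cycle, where none passed, 48 did with means above 6, 68 after quantile normalization, 53 with trended and robust variances, 62 with the floor as a block and 0 to 226 with an array left out. The members among these numbered 13, 11, 9 and 11 in this order, and 0 to 18 with an array left out. The cause of these moves was not tested. The members' median SD between replicates lay between 0.27 and 0.29 and their median r between 0.58 and 0.73 under the alternatives. With 2 arrays at each time, 4 arrays on each side of a cycle and no depth to read from log2 signals, differences as small as those of the steady members may go undetected.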
